A study of Mus musculus with 20 samples.

Results

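The T cell identity and regulatory genes were 10 mouse genes, taken as the rows of the raw count table whose symbol is Cd3e, Cd3d, Cd3g, Cd4, Cd8a, Foxp3, Il2ra, Icos, Tnfrsf4 or Ikzf2. All 10 were found among the 22090 symbols of the table. They were followed across 20 skin tissues, which comprised 8 normal skin (NS), 8 actinic keratoses (AK, a precancerous lesion) and 4 cutaneous squamous cell carcinomas (cSCC). All tissues came from the back of Hairless SKH-1 mice, females with a stated age of 7 months. In the study's methods this is the age at which the mice were divided into groups. The tissues were taken at the end of many weeks of irradiation with UVA and UVB, so at a later age. SKH-1 is an unpigmented strain used to grow skin tumors under ultraviolet light. Of the 8 mice, 4 formed the arm without irradiation (WO) and 4 the arm under ultraviolet light (UVR), given daily by the labels but less often by the study's methods. Each WO mouse gave 1 piece of normal skin, and each UVR mouse gave normal skin, AK of grades named AK-1 and AK-2, and cSCC, so all AK and cSCC stand for 4 mice. The labels do not tell which NS were irradiated or which tissues share a mouse, and the p-values below treat tissues as independent, so they may be too small.

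The CD3 chains carry the signal of the T cell receptor into the cell and mark nearly all T cells. CD4 and CD8 are the co-receptors that separate helper from cytotoxic T cells. Regulatory T cells, which restrain immune responses, are defined by the transcription factor FOXP3 and usually carry the interleukin-2 receptor alpha chain (CD25, from Il2ra), ICOS, OX40 (from Tnfrsf4) and often HELIOS (from Ikzf2). Normal mouse epidermis holds many resident gamma-delta T cells, which carry CD3 but mostly lack CD4 and CD8. The genes of the T cell receptor itself, which would separate gamma-delta from other T cells, were not analysed here.

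Cd3g and Ikzf2 were the members that fell in cSCC, both against NS and against AK, and no member was called different between AK and NS, by edgeR. With limma voom both kept the call against NS, but neither was called against AK. In cSCC the fitted level of Cd3g was 0.0824 of that in NS, and that of Ikzf2 was 0.125. Summed over a group, Cd3e, Cd3d and Cd3g held 2838 of 30288936 counts in NS, 2323 of 38892460 in AK and 90 of 12698535 in cSCC, or 93.7, 59.7 and 7.09 per 1e6 counts. These sums weight samples by depth, and cSCC replicate 21 supplied 7095102 of the cSCC counts. Its rate was 2.96 per 1e6, against 11.7, 7.51 and 27.1 in replicates 18, 19 and 20. With each sample weighted equally, the mean rates were 97.5, 56.5 and 12.3 per 1e6 in NS, AK and cSCC. Of the other members that regulatory T cells carry, Il2ra, Icos and Tnfrsf4 did not pass the test in cSCC, and Foxp3 had too few counts to be tested.

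Levels below are CPM, that is, counts relative to each library's total after TMM adjustment over the 20 samples. The TMM factor was 0.509 in cSCC replicate 18 and 0.852 to 1.22 in the other samples. The CPM of replicate 18 are thus well above those scaled by library size alone. Total counts ranged from 775750 to 14055206 per sample, so the smallest level that 3 counts can show ran from 0.225 to 3.78 CPM, a limit that covers counting error only. Of the 4 cSCC libraries, replicate 18 had 46.9% of its counts on 6 erythroid genes, replicate 20 had 4.08% on 8 lung genes and replicate 21 had 4.89% on 8 heart muscle genes. In NS and AK the lung genes summed to at most 51.7 CPM and the heart genes to at most 79.5 CPM, while the erythroid genes held 0.0918% to 5.46% of the counts in NS, 1.00% to 14.4% in AK and 1.45% to 6.10% in the other 3 cSCC. The part of these libraries in the results was not tested beyond the values without them given below. In whole tissue, fewer cells of a type and less RNA per cell cannot be told apart.

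**Figure D1:**
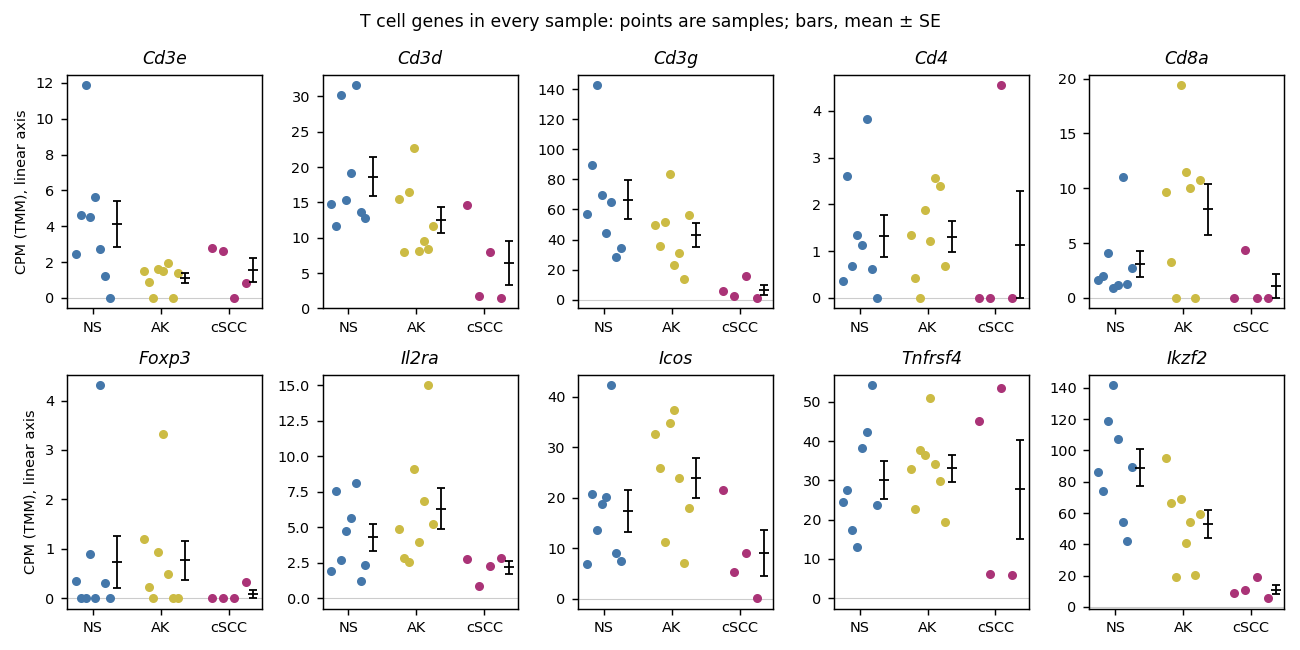
Each panel plots 1 gene in CPM on a linear axis, with its own scale, for the 8 NS, 8 AK and 4 cSCC samples; points are samples and the black marks show the mean ± SE. Cd3g and Ikzf2 were lower in every cSCC sample than in every NS sample, while Foxp3, Cd4 and Cd8a lay at 0 in several samples.

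Cd3g, Cd3d and Cd3e encode the gamma, delta and epsilon chains of CD3 and lie side by side on chromosome 9. On GRCm38, with GENCODE M21, Cd3g (ENSMUSG00000002033.14) spans chr9:44969572-44980431 on the minus strand, Cd3d (ENSMUSG00000032094.8) spans chr9:44981786-44987339 on the plus strand and Cd3e (ENSMUSG00000032093.7) spans chr9:44998740-45009627 on the minus strand. The starts of Cd3g and Cd3d lie 1355 bases apart and point away from each other. The promoters of the 3 genes are shown because they are neighbors. Their fitted log2 differences in cSCC vs. NS were -3.60 (SE 0.70), -1.59 (SE 0.60) and -1.28 (SE 0.98) for Cd3g, Cd3d and Cd3e. These were not tested against each other, and the part of the promoters in them was not tested. Each run holds 300 bases, from 250 before to 50 after the start in RefSeq (GRCm38.p6), 5′ to 3′ on the gene's strand, and capitals mark matches on either strand to the letters AGGAAG (ETS type), CTTTGA (TCF/LEF type), CAGCTG (an E-box) or TGTGGT (RUNX type).
Cd3g, chr9:44980382-44980681, minus strand: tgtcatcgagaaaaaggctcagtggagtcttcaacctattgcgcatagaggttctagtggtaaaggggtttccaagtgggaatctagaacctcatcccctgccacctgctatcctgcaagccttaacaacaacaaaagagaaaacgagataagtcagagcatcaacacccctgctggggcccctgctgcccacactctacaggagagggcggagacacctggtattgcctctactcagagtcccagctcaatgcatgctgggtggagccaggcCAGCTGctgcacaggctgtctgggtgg
Cd3d, chr9:44981536-44981835, plus strand: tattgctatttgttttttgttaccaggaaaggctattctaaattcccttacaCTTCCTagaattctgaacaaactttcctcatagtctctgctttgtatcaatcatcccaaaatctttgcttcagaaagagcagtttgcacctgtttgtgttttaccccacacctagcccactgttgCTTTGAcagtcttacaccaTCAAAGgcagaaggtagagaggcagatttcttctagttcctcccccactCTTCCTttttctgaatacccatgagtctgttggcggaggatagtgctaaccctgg
Cd3e, chr9:45009562-45009861, minus strand: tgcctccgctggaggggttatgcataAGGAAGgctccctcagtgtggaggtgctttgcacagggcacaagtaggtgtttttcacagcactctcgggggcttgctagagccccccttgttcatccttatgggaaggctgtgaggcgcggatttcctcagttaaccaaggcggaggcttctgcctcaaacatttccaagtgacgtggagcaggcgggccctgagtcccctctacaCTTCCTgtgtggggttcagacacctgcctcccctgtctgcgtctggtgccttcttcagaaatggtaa
Cd3d held 2 matches to AGGAAG and 2 to CTTTGA, Cd3e held 2 to AGGAAG, and Cd3g held 1 to CAGCTG, while TGTGGT matched in none of these 3 windows. Of 32851 promoters of this length, 35.4% held AGGAAG, 16.003% CTTTGA, 16.3% CAGCTG and 16.8% TGTGGT, so such matches are common. GC content was 54.0% in the Cd3g window, 42.3% in that of Cd3d and 56.7% in that of Cd3e.

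Cd3g ranged from 28.3 to 143 CPM in NS (median 60.8) and from 13.8 to 83.9 CPM in AK (median 42.5). In cSCC its levels were 5.56, 2.20, 15.9 and 1.16 CPM in replicates 18 to 21. All 4 cSCC samples were below all NS samples, but replicate 20 was above the lowest AK sample. Cd3g fell by 3.60 on the log2 scale in cSCC vs. NS (SE 0.70, adjusted p = 0.0047, edgeR's quasi-likelihood test with Benjamini-Hochberg adjustment) and fell by 2.93 in cSCC vs. AK (SE 0.67, adjusted p = 0.0082). Without cSCC replicate 20, the sample with the highest level, these differences were -4.63 and -3.93, and without replicates 20 and 21 together they were -4.14 and -3.48, with adjusted p of 0.0060 and 0.0081. With limma voom the call against AK was lost (adjusted p = 0.0986).

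Cd3d ranged from 11.6 to 31.6 CPM in NS (median 15.04) and from 8.02 to 22.7 CPM in AK (median 10.6). Its cSCC levels were 14.6, 1.76, 7.96 and 1.49 CPM, so replicate 18 lay inside both other groups. Scaled by library size alone, replicate 18 was at 7.42 CPM, below the lowest NS (12.8) and the lowest AK sample (7.52). The log2 difference in cSCC vs. NS was -1.59 (SE 0.60, adjusted p = 0.0778) and missed the threshold, whereas without replicate 18 it was -2.56 with adjusted p = 0.0108. In cSCC vs. AK it was -0.96 (SE 0.59, adjusted p = 0.243), and -1.96 without replicate 18 (adjusted p = 0.0301).

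Cd3e was the lowest of the 3 chains, at 0 to 11.9 CPM in NS (median 3.61), 0 to 1.92 CPM in AK (median 1.43) and 2.78, 2.64, 0 and 0.83 CPM in cSCC. It passed the filter on low counts only in cSCC vs. NS, where its log2 difference was -1.28 (SE 0.98, adjusted p = 0.379). Per kilobase of annotated exon, the mean level in NS was 20.3 CPM for Cd3g, 10.3 for Cd3d and 1.01 for Cd3e, the same order as before division by length. Exons of Cd3e overlap an annotated gene on the opposite strand, and the strand setting of the counting is not given in the sources used here.

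Cd3g made up 64.2% to 84.7% of the summed counts of the 3 chains in NS and 62.2% to 81.1% in AK. In cSCC this share was 24.2%, 33.3%, 66.7% and 33.3%, from 33, 15, 21 and 21 counts. The share in 3 of the 4 cSCC samples was thus below that of every NS and AK sample, at few counts.

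Set against 10 genes of leukocytes in general, the 3 chains had their highest median in NS and their lowest in cSCC. They held a median of 77.5 counts per 1000 leukocyte counts in NS (39.2 to 214), 48.2 in AK (14.5 to 65.5) and 10.2 in cSCC (18.1, 3.73, 12.96 and 7.35 in replicates 18 to 21). The cSCC and NS ranges of this ratio did not overlap, and cSCC replicate 18 was above the lowest AK sample. Set against the median CPM of the 10 genes instead, with CD3 as the median of its 3 chains, the ratio was 0.0848 to 0.352 in NS and 0.0281 to 0.104 in cSCC, so cSCC replicate 18 was above the lowest NS sample. The summed level of the leukocyte genes was 657 to 1479 CPM in NS, 972 to 1896 in AK and 472 to 1843 in cSCC, with the lowest value in cSCC replicate 21. Ptprc, the leukocyte marker CD45, had a mean of 127 CPM in NS, 202 in AK and 132 in cSCC, and was not called by edgeR in any comparison, while limma voom called it higher in AK vs. NS (adjusted p = 0.0394). Of the 10 leukocyte genes, Lcp1 was called higher and Cd52 lower in cSCC vs. NS, beside 11.7% and 7.65% of all genes. Coro1a and Rac2 were called higher and none lower in cSCC vs. AK, beside 16% and 8.34%. With limma voom 2 were higher against NS and 1 against AK, and none lower. The part of the leukocyte genes in the ratios to CD3 was not tested. These ratios are given as a description, with no test.

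**Figure D2:**
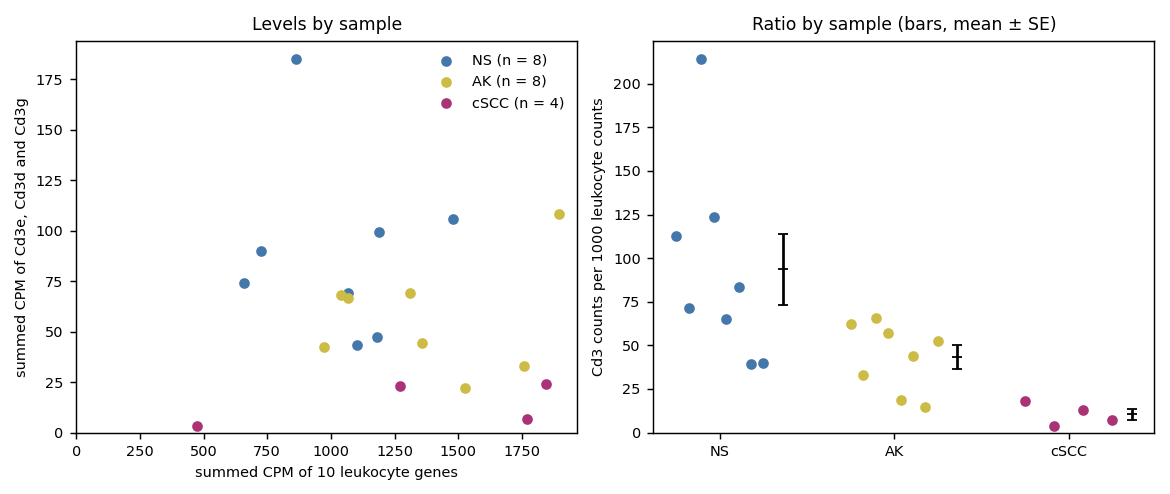
Left, the summed CPM of Cd3e, Cd3d and Cd3g (y axis) against the summed CPM of 10 leukocyte genes (x axis) in each of the 8 NS, 8 AK and 4 cSCC samples. Right, Cd3 counts per 1000 leukocyte counts by group, with points for samples and black marks for the mean ± SE; cSCC lie at 3.73 to 18.1 and NS at 39.2 to 214.

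Ikzf2 encodes HELIOS, a zinc finger transcription factor of the Ikaros family that is also found outside T cells. It spans chr1:69531214-69687245 on the minus strand (ENSMUSG00000025997.13), and its exons overlap an annotated gene on the opposite strand. Levels were 42.0 to 142 CPM in NS (median 87.6), 18.9 to 95.3 CPM in AK (median 57.0) and 9.03, 10.6, 19.3 and 5.62 CPM in cSCC. All cSCC samples were below all NS samples, and cSCC replicate 20 was just above the lowest AK sample. Ikzf2 fell by 3.001 on the log2 scale in cSCC vs. NS (SE 0.43, adjusted p = 0.0014) and by 2.21 in cSCC vs. AK (SE 0.47, adjusted p = 0.0059). Without cSCC replicates 20 and 21 the differences were -3.15 (adjusted p = 0.0035) and -2.37 (adjusted p = 0.0183). With limma voom the call against AK was lost (adjusted p = 0.0733).

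Of the 7 members tested in cSCC vs. NS, 2 fell and none rose, beside 7.65% of all genes tested that were lower and 11.7% that were higher. In cSCC vs. AK, again 2 of 7 fell and none rose, beside 8.34% lower and 16% higher. Members whose 4 cSCC samples all lay below the other group numbered 2 of 7 against NS, where 5.73% of genes did so, and 0 of 7 against AK, where 6.84% did. All 7 tested members had a negative log2 difference in both comparisons, with medians of -1.28 and -1.43, beside medians over all genes of 0.14 and 0.17. Of these members, Cd3e against NS and Cd8a against AK held only 15 and 10 counts over the 4 cSCC. Cd3g, Cd3d, Il2ra and Icos held 34, 41, 25 and 52. The cSCC samples alone would not have carried any of these members past the filter. They passed it with NS or AK samples, which favors a negative sign, and the median of -1.28 is the value of Cd3e. The shared sign is therefore a description only, and the counts of members above, which include Cd3g, share this limit. Members that failed the filter (Cd4, Foxp3 and Cd8a against NS, and Cd4, Foxp3 and Cd3e against AK) are not in these counts. Both comparisons share the cSCC samples.

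**Figure D3:**
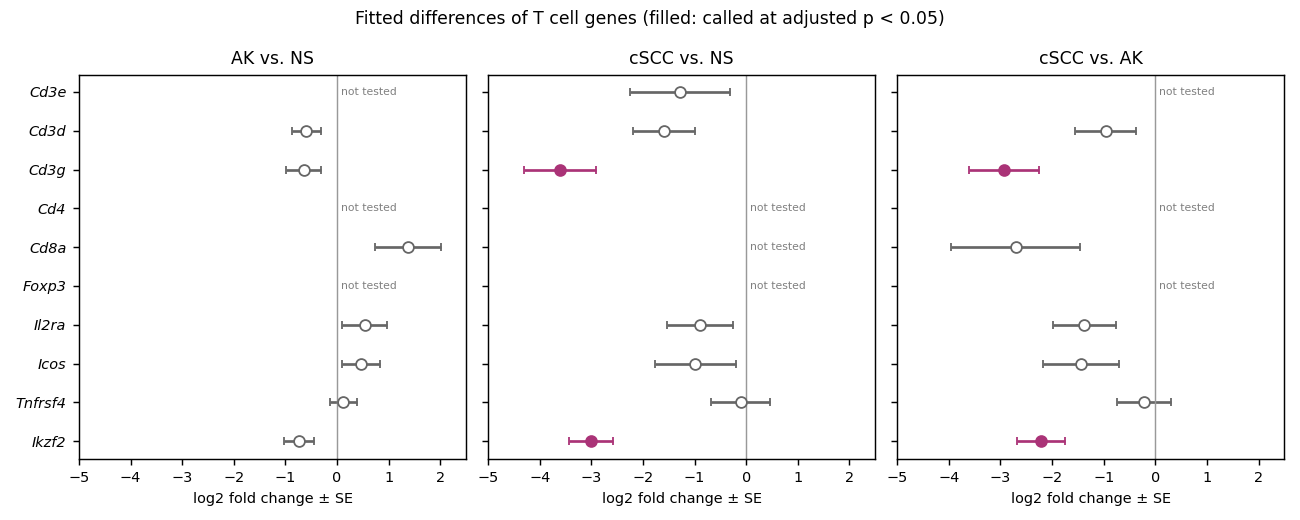
Points show the fitted log2 fold change of each gene (x axis) with its SE in the 3 comparisons, filled where the gene was called by edgeR's test; genes below the count filter are marked as not tested. Cd3g and Ikzf2 are called in both comparisons with cSCC, at -3.60 and -3.001 against NS, and no gene is called in AK vs. NS.

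In AK vs. NS, 0 of 7 tested members were called by edgeR, beside 2.26% of genes higher and 2.38% lower. DESeq2 and limma voom also called 0, while 3 members had an unadjusted p under 0.05. Those were Ikzf2 at -0.74 on the log2 scale (SE 0.29, adjusted p = 0.127), Cd3d at -0.60 (SE 0.28, adjusted p = 0.199) and Cd8a at 1.38 (SE 0.63, adjusted p = 0.186). Cd3g differed by -0.64 (SE 0.34, adjusted p = 0.248).

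Cd8a, the alpha chain of the CD8 co-receptor (chr6:71373427-71379173), was 0.90 to 11.01 CPM in NS (median 1.81) and 0 to 19.4 CPM in AK (median 9.86). Among AK, 5 samples lay at 9.65 CPM or above, and the 2 samples at 0 were the libraries with the lowest totals. In cSCC it had 10 counts in replicate 19 (4.39 CPM) and 0 counts in the other 3, against a smallest detectable level of 0.50 to 3.41 CPM in those 3. The log2 difference in cSCC vs. AK was -2.70 (SE 1.25, adjusted p = 0.125). Cd8b1, the partner chain, had means of 3.33 CPM in NS, 9.36 in AK and 2.40 in cSCC and was not called by edgeR in any comparison, while limma voom called it higher in AK vs. NS (adjusted p = 0.0307).

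Cd4 (chr6:124864692-124888221) was below the filter on low counts in every comparison and was not tested. It reached the limit of 3 counts in 3 of 8 NS, 6 of 8 AK and 1 of 4 cSCC samples. It was 0 to 3.83 CPM in NS (median 0.90) and 0 to 2.56 CPM in AK (median 1.28), and in cSCC 4 counts in replicate 20 (4.55 CPM) and 0 in the others. Cd4 and Cd8a together held 25.1 to 150 counts per 1000 counts of the CD3 chains in NS and 0 to 385 in AK. The co-receptors were thus sparse beside CD3 in NS, at a median of 37.4 per 1000, and their median in AK was 166 per 1000, with overlapping ranges and no test. Per kilobase of exon, the mean level in NS was 0.33 CPM for Cd4 and 0.85 for Cd8a.

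Foxp3, which defines regulatory T cells (chrX:7573644-7595245), had 34 counts over all 8 NS, 35 over all 8 AK and 2 over the 4 cSCC. In NS 27 of its counts were in replicate 7 (4.31 CPM), and the median was 0.15 CPM. In AK the range was 0 to 3.32 CPM (median 0.35), with 16 counts in replicate 10 and 11 in replicate 14. In cSCC it had 2 counts in replicate 21 (0.33 CPM) and 0 in the others, all under the limit of 3 counts, so its level in cSCC was not detectable at this depth. Foxp3 overlaps several annotated genes, with exons on the opposite strand among them.

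Il2ra (chr2:11642807-11693193), the CD25 chain that gives the interleukin-2 receptor its high affinity, was 1.22 to 8.13 CPM in NS (median 3.72) and 2.52 to 14.98 CPM in AK (median 5.06). Its cSCC levels were 2.78, 0.88, 2.28 and 2.81 CPM, which overlap both groups. The log2 difference was 0.54 in AK vs. NS (SE 0.44, adjusted p = 0.464), -0.90 in cSCC vs. NS (SE 0.64, adjusted p = 0.349) and -1.37 in cSCC vs. AK (SE 0.61, adjusted p = 0.110).

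Icos (chr1:60977927-61000320), a costimulatory receptor of activated T cells, was 6.86 to 42.3 CPM in NS (median 16.2) and 7.19 to 37.4 CPM in AK (median 24.99). In cSCC it was 21.5, 5.27, 9.10 and 0.17 CPM, so replicate 18 lay well within NS and AK. Scaled by library size alone, replicate 18 was at 10.95 CPM, nearer the lower end of both. The log2 difference was 0.47 in AK vs. NS (SE 0.37, adjusted p = 0.452), -0.98 in cSCC vs. NS (SE 0.79, adjusted p = 0.405) and -1.43 in cSCC vs. AK (SE 0.74, adjusted p = 0.167). Without cSCC replicate 18 the last was -2.56 with adjusted p = 0.0318.

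Tnfrsf4 (chr4:156013843-156016612) encodes OX40, a costimulatory receptor of the tumor necrosis factor receptor family. It was 13.1 to 54.2 CPM in NS (median 26.0) and 19.4 to 51.0 CPM in AK (median 33.5). The cSCC samples split, with 45.1 CPM in replicate 18 and 53.5 in replicate 20 but 6.15 in replicate 19 and 5.95 in replicate 21. The high pair lay at the upper end of NS and AK, and the low pair lay below every sample of both. Scaled by library size alone, replicate 18 was at 23.0 CPM, inside NS and AK but not at their upper end. The log2 difference was 0.12 in AK vs. NS (SE 0.26, adjusted p = 0.818), -0.11 in cSCC vs. NS (SE 0.58, adjusted p = 0.919) and -0.22 in cSCC vs. AK (SE 0.52, adjusted p = 0.793), and its sign turned when single samples were left out.

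Per kilobase of exon, Tnfrsf4 had the highest mean level of the members in NS (22.1 CPM), followed by Cd3g (20.3), Cd3d (10.3), Ikzf2 (7.67) and Icos (5.08). In cSCC the order began with Tnfrsf4 (20.3), Cd3d (3.55), Icos (2.63) and Cd3g (1.90). Neighbors in these orders were not tested against each other, and in cSCC the SD of the CPM of Tnfrsf4, Cd3d, Icos and Cd3g each came near or passed its mean.

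Beyond the members, 21 of 24 listed genes of T cell receptor signaling were in the table. In cSCC vs. NS 4 of the 14 tested fell and none rose, and in cSCC vs. AK 4 of 17 fell and none rose, beside 7.65% and 8.34% of all genes lower, with medians of -1.08 and -1.25 on the log2 scale. With limma voom 1 gene, Bcl11b, was called lower in each comparison. Cd247, the zeta chain that signals together with CD3, fell by 3.91 in cSCC vs. NS (SE 0.73, adjusted p = 0.0039), from a mean of 7.35 CPM to 0.34 CPM. Trat1, an adaptor of the receptor complex, fell by 4.37 (SE 1.04, adjusted p = 0.0115), and Bcl11b, a transcription factor of T cells that keratinocytes also express, fell by 2.27 (SE 0.48, adjusted p = 0.0071). Bcl11b and Trat1 also fell in cSCC vs. AK, by 2.34 and 3.47, together with Skap1 and with Themis, which had a mean of 7.73 CPM in AK and 0 in all 4 cSCC. The cSCC mean of Cd247 was below the limit of 3 counts in each cSCC library (0.50 to 3.41 CPM). Themis in cSCC vs. AK and Cd247 in cSCC vs. NS thus passed the count filter through AK and NS. A fall was the direction open to them, and both are part of the counts of called genes above. Lck, the kinase that starts receptor signaling, had means of 11.7 CPM in NS and 8.03 in cSCC (log2 difference -0.56, SE 0.52, adjusted p = 0.475).

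In AK vs. NS 2 of 16 genes of this list fell and none rose, beside 2.38% of all genes lower and 2.26% higher. DESeq2 called 2 genes of the list higher and limma voom 1. Cd247 fell by 1.54 on the log2 scale (SE 0.44, adjusted p = 0.0487), from 7.35 to 2.66 CPM, close to the threshold. Thy1, a surface marker of T cells that fibroblasts also carry, fell by 0.87 (SE 0.17, adjusted p = 0.0156), from 57.5 to 31.5 CPM. The median of the list in AK vs. NS was 0.09.

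**Figure D4:**
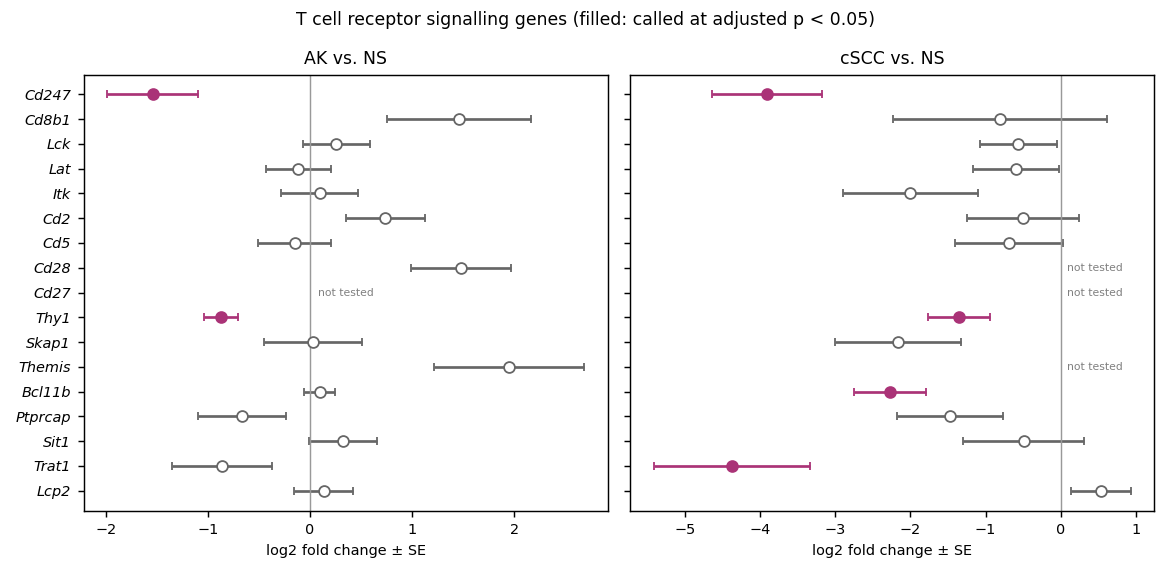
Fitted log2 fold changes with SE (x axes, with different ranges) of the T cell receptor signaling genes tested in AK vs. NS (left) and cSCC vs. NS (right), filled where called by edgeR's test. Cd247 and Thy1 are called in both panels, at -1.54 and -0.87 on the left, and Bcl11b and Trat1 on the right alone; the difference between the panels was not tested.

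Itgae encodes CD103, an integrin chain that holds T cells and dendritic cells in the epidermis. Its mean was 18.8 CPM in NS, 16.8 in AK and 3.39 in cSCC, and it fell by 2.51 in cSCC vs. NS (SE 0.47, adjusted p = 0.0041) and by 2.31 in cSCC vs. AK (SE 0.49, adjusted p = 0.0059). With limma voom both calls were lost (adjusted p = 0.0925 and 0.131). By edgeR it was the called gene among the 2 gamma-delta T cell genes tested in each of these comparisons. Over all genes tested, 7.65% and 8.34% were lower. The other tested gene was not called and had positive log2 differences, of 0.50 and 1.45. DESeq2 called 1 gene of the list higher and 2 lower in cSCC vs. AK. The summed level of the list was 17.7 to 47.7 CPM in NS, 7.79 to 39.0 in AK and 5.56 to 57.1 in cSCC, so the ranges overlapped.

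Among 16 companions of regulatory T cells, 3 rose and 1 fell of 10 tested in cSCC vs. NS, and 3 rose and 1 fell of 11 in cSCC vs. AK, beside 11.7% and 16% of all genes higher and 7.65% and 8.34% lower. Entpd1 (CD39) and Nt5e (CD73), ectoenzymes that turn extracellular ATP into adenosine, rose in cSCC vs. NS by 1.67 (SE 0.42, adjusted p = 0.0148) and 1.68 (SE 0.52, adjusted p = 0.0361). Capg, an actin-capping protein, rose by 1.74 (SE 0.45, adjusted p = 0.0171), and Itgb8, an integrin chain that activates TGF-beta, fell by 2.33 (SE 0.65, adjusted p = 0.0231). With limma voom the calls of Nt5e (adjusted p = 0.0823) and Itgb8 (adjusted p = 0.0578) against NS were lost. These 4 genes are also expressed by other cells of skin. Ctla4 and Tnfrsf18 (GITR), which are more closely tied to regulatory T cells, were not called by edgeR in any comparison, with means in NS, AK and cSCC of 6.67, 6.76 and 3.13 CPM for Ctla4 and 64.5, 63.0 and 30.1 CPM for Tnfrsf18, which limma voom called lower in cSCC vs. NS (adjusted p = 0.0315).

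Of 11 ligands and receptor subunits, Il7r, the receptor chain for the survival factor interleukin-7, rose in AK vs. NS by 1.03 on the log2 scale (SE 0.30, adjusted p = 0.0485) and fell in cSCC vs. AK by 2.44 (SE 0.66, adjusted p = 0.0171). Il2rg, the common gamma chain that pairs with CD25, rose in cSCC vs. NS by 1.15 (SE 0.30, adjusted p = 0.0179). Il2, Icosl and Tnfsf4, the ligands of CD25, ICOS and OX40, had means of 0.21 to 3.50 CPM over the groups and were too low to be tested.

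Some markers of epidermis and of its dendritic cells were also called in cSCC vs. NS. Of 9 keratinocyte genes, 5 fell in cSCC vs. NS (Lor, Flg, Krt10, Krt1 and Dsg1a) and none rose. Over all genes tested, 7.65% fell and 11.7% rose. Krt5 and Krt14 of the basal layer were not called, at 0.38 and 0.39 on the log2 scale. The summed keratinocyte level was 10773 to 24553 CPM in NS, 11986 to 25180 in AK and 3766 to 19093 in cSCC. Cd207, which defines Langerhans cells, fell from a mean of 85.5 to 2.92 CPM, by 4.96 (SE 0.89, adjusted p = 0.0032). Of the 7 tested genes of Langerhans and dendritic cells, 2 fell (Cd207 and Ccl22) and 1 rose (Cd74). The summed level of their list was 717 to 956 CPM in NS and 247 to 899 in cSCC, so the ranges overlapped. The part of epidermal content in the levels of the T cell genes was not tested. Of 8 thymocyte genes, Rag2 and Ptcra were at 0 in all NS and cSCC samples, but neither was at 0 in every AK sample. The summed level of the 8 genes was 16.4 to 71.6 CPM in NS, 25.8 to 54.0 in AK and 6.59 to 41.0 in cSCC.

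Among the 16 NS and AK samples, the genes closest in pattern to the mean log2(CPM + 1) of Cd3e, Cd3d and Cd3g, out of 12844 ranked, were Chmp6 (Spearman rho 0.894), Mbp (0.891), Ubald1, Scap, Trappc12, Cnpy2, Sh3glb2 and Klc3. Of these, Mbp ranked first over all 20 samples, at rho 0.940, where Itgae (0.911) and Cd207 (0.899) were among the first 8. The 16 samples share mice, depths and lesion type, and these values only describe the ranking. For Foxp3 the first was Pgam5 at 0.838, on counts mostly of 0 to 4, and nothing is read from it. Between members, rho over the 16 samples was 0.621 for Cd3d and Cd3g, 0.637 for Cd3e and Cd3g and 0.451 for Cd3e and Cd3d.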

How the data were processed

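The authors deposited raw counts per gene symbol, without normalization, for 8 NS, 8 AK and 4 cSCC. Per the labels' processing notes, Trimmomatic 0.36, HISAT2 2.0.5 and featureCounts 1.5.2 were used with builds mm9 and hg19, while the study's methods name GRCm38 and StringTie. The table holds no coordinates, and those printed come from GENCODE M21 on GRCm38, matched by symbol (95.3% of 22090 symbols, all 10 members). Groups came from the labels. Each pair of groups was fitted on its own samples with edgeR 4.0.16 in R 4.3.3 (quasi-likelihood test, TMM, filterByExpr, Benjamini-Hochberg adjustment over all genes tested), and calls needed an adjusted p under 0.05 with a fold change outside 0.67 to 1.5. The SE is the log2 fold change divided by the square root of F. The test was checked on simulated data. Alternatives were DESeq2 1.42.0, limma 3.58.1 voom with sample weights, other scalings and filters, 1 fit of all samples and leaving out samples. The members and gene lists were chosen with earlier results of these data known. Named genes are all members, up to 4 called genes with the smallest p per list and comparison, fixed lineage genes and the 8 genes nearest in rank correlation. Krt5, Krt14, Dsg1a, Rag2, Ptcra, Lck and Cd8b1 were added after their values were seen. No pair of samples in a group was 1 library (62 pairs, smallest chi-square per degree of freedom 11.3). Totals per sample set the precision, and floors of 3 counts cover counting error only.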

Additional observations from a re-analysis of the deposited data

Results flagged for a closer look

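In 4 of 30 groups of values (10 genes in 3 groups), 1 sample stood apart by Dixon's 95% limit. Chance flags about 1 in 20 groups of continuous values, a rate that does not hold for the 3 cSCC groups below, where any count beside 0 in the other samples passes the limit. Foxp3 in NS replicate 7 was 4.31 CPM (27 counts), and the next NS sample was 0.90 CPM. In cSCC, Cd4 was 4.55 CPM in replicate 20 (4 counts), Cd8a was 4.39 CPM in replicate 19 (10 counts) and Foxp3 was 0.331 CPM in replicate 21 (2 counts), each with 0 counts in the other samples of the group.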

How the results depend on the processing

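Over the alternatives to each member's fitted difference, 420 values kept their direction and side of the threshold, 7 passed it, 2 lost it and 6 turned sign. No member was called in AK vs. NS under any alternative, and 2 to 3 were called in cSCC vs. NS. In cSCC vs. AK the count of 2 became 0 with limma voom (Cd3g adjusted p = 0.0986, Ikzf2 adjusted p = 0.0733) and 4 without cSCC replicate 18, and leaving out single samples gave 2 to 4. Cd3d was also called in cSCC vs. NS by DESeq2 (adjusted p = 0.0409), with library size alone (0.0215) and in 1 fit of all samples (0.0276). The values that turned sign were all of Tnfrsf4. They were -0.0049 in AK vs. NS without AK replicate 14, 0.02 without NS replicate 8, 0.23 without cSCC replicate 19 and 0.24 without cSCC replicate 21 in cSCC vs. NS, and 0.12 and 0.07 without cSCC replicates 19 and 21 in cSCC vs. AK. Leaving out single samples, Tnfrsf4 ranged from -0.0049 to 0.28, from -0.68 to 0.24 and from -0.77 to 0.12 in these comparisons. Without cSCC replicate 19, Cd8a passed the threshold in cSCC vs. AK (adjusted p = 0.0236), with the remaining cSCC at 0 counts. The cause of these shifts was not tested. The share of all genes called depends on the scaling: with library size alone, 625 were higher and 1332 lower in cSCC vs. NS (1414 and 926 with TMM), 1021 and 1356 in cSCC vs. AK (1931 and 1004), and 176 and 481 in AK vs. NS (264 and 278). In AK vs. NS 542 genes were called in all, against 9 in 1 fit of all samples, 1060 by DESeq2 and 1043 by limma voom. No paired analysis was possible because the labels do not tell which tissues share a mouse, although the UVR mice each gave several tissues. Depth limits Cd4 and Foxp3 in many samples and Cd3e and Cd8a in cSCC.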

Other observations

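Icos and Ikzf2 were ranked against all genes in the same way as the CD3 chains, a choice made after their values were seen. Over the 16 NS and AK samples, the 8 genes nearest to Icos began with Cxcl16 (rho 0.835), Lck (0.8294), Psmb10 (0.806), H2-Aa (0.803) and Cd2 (0.794). Dhx38, Ltc4s and Saysd1 followed. Of these, Lck and Cd2 act in T cells and H2-Aa in antigen presentation. The 3 genes nearest to Ikzf2 were Sh3d19 (0.968), Pak3 (0.926) and Faah (0.918), none of them on the T cell lists used here. These values describe samples that share mice and depth, and no test was made of them.

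Cd74, the invariant chain of antigen presentation, rose in cSCC vs. NS from a mean of 125 to 336 CPM, by 1.49 on the log2 scale (SE 0.40, adjusted p = 0.0200), while Ccl22, a chemokine of dendritic cells that attracts regulatory T cells, fell from 17.1 to 1.00 CPM, by 4.13 (SE 0.64, adjusted p = 0.0017). Rora, a nuclear receptor of helper T cells that keratinocytes also express, fell by 2.82 (SE 0.45, adjusted p = 0.0017). Tnf, a cytokine of T cells and macrophages, rose in cSCC vs. AK from 1.13 to 7.15 CPM, by 2.70 (SE 0.78, adjusted p = 0.0222), and S1pr1, the receptor by which lymphocytes leave tissue, rose by 1.99 (SE 0.58, adjusted p = 0.0226). With limma voom both calls were lost (adjusted p = 0.0549 for Tnf and 0.104 for S1pr1). Klrk1, the activating receptor NKG2D, fell in cSCC vs. AK from a mean of 16.5 to 3.25 CPM, by 2.49 (SE 0.82, adjusted p = 0.0399), a call lost with limma voom (adjusted p = 0.363).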
